A study of Rattus norvegicus with 5 samples.

Results

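Histone genes, which encode the proteins that nuclear DNA is wound around, were examined in 5 RNA-seq libraries of cultured vascular smooth muscle cells from the rat. These cells form the contractile layer of arteries. Members were all table rows whose gene symbol begins with Hist1h to Hist4h, H2af, H3f3 or H1f followed by a digit or x, with a value above 0 in at least 1 library and 1 row per symbol. Of 17048 rows, 33 symbols met the name rule and 32 had a value above 0; H2afb3 was listed at 0 in all 5 libraries. By symbol, 24 members are clustered replication-dependent genes (Hist1h to Hist3h, called clustered genes below) and 8 are replacement variants (H2afj, H2afv, H2afx, H2afy, H2afy2, H2afz, H3f3b and H1f0).

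There was 1 library in each of 5 conditions, all from cultured cells in DMEM/F12 medium: In-Cl (0.1 µM) before 24 h of hypoxia, DPN (0.1 µM) before 24 h of hypoxia, E2 (10 nM) before 24 h of hypoxia, 24 h of hypoxia alone, and a control. E2 is estradiol, the natural estrogen. DPN is diarylpropionitrile, an agonist selective for estrogen receptor beta, and In-Cl is Indazole-Cl, which the design groups with them as an estrogen receptor agonist. The sources used here give no oxygen level, passage or vessel of origin. With 1 library per condition no difference has a replicate check and no p-value is given, so each statement compares libraries rather than conditions.

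Replication-dependent histone genes lie in clusters, have no introns, and are transcribed mainly in S phase, when new chromatin is built. Their mRNAs are the known exception among animal mRNAs in ending in a stem-loop, bound by the protein SLBP, instead of a poly(A) tail. Replacement variants are encoded by single genes elsewhere, usually with introns and a poly(A) tail, and are made through the whole cell cycle. H2afx is known to give both kinds of transcript, and some clustered H2B genes also give polyadenylated transcripts in human cells that have stopped dividing. The libraries were made from total RNA with a stranded SMARTer kit, and whether poly(A) RNA was selected or ribosomal RNA removed is not stated in the labels.

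All 32 symbols were found in the RefSeq gene table of the rat (assembly GRCr8), 27 of them for a single gene and 5 for more than 1. The ambiguous symbols are Hist1h2bh, Hist1h4b, Hist1h1d, Hist1h2bl and H2afx. A RefSeq promoter window of 300 bases (250 before and 50 after the gene start) was found for 27 members, with Hist1h4b taken by its own symbol. The windows of Hist3h2a and Hist3h2bb share 283 bases on opposite strands, and those of Hist1h2aa and Hist1h2ba share 261, as in the known head-to-head H2A and H2B gene pairs. The 5 windows below belong to 3 clustered genes with high counts and to the variants H3f3b and H2afz, which differed from the control in opposite directions. Capitals mark the TATA box letters TATAAA, the CCAAT box letters CCAAT and the GC box letters GGGCGG. Matches are on either strand and anywhere in the window, coding bases included, and adjoining or overlapping matches run together. Sequences are RefSeq's, build GRCr8, written 5′ to 3′ on the gene's strand. Hist2h2ab, now named H2ac21, is at chr2:186467974-186468273, plus strand. Hist3h2a, now H2ac25, is at chr10:44233033-44233332, plus strand. Hist1h4b is at chr17:47175996-47176295, plus strand. H3f3b is at chr10:101757587-101757886, minus strand. H2afz, now H2az1, is at chr2:229028845-229029144, plus strand.
Hist2h2ab: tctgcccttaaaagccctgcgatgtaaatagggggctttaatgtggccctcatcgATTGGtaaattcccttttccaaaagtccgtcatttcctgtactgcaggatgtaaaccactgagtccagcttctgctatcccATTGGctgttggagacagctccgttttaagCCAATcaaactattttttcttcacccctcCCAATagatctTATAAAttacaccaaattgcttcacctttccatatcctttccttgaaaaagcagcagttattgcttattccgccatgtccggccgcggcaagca
Hist3h2a: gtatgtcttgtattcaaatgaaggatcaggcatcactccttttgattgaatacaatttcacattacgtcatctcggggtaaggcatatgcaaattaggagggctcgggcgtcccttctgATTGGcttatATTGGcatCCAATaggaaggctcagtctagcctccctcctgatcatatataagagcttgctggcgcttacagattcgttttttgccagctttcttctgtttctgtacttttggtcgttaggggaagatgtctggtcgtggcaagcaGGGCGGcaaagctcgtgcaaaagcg
Hist1h4b: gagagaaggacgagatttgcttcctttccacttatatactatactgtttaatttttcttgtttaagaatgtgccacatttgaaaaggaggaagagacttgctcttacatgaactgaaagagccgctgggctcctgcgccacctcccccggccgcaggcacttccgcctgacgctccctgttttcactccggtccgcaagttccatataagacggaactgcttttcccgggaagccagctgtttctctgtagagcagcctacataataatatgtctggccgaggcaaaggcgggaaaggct
H3f3b: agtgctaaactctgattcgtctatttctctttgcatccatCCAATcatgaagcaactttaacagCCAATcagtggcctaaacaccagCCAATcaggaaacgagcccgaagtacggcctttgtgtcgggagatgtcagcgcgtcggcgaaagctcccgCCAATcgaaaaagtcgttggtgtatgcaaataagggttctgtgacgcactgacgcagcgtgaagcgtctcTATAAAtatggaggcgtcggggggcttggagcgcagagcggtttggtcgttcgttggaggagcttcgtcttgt
H2afz: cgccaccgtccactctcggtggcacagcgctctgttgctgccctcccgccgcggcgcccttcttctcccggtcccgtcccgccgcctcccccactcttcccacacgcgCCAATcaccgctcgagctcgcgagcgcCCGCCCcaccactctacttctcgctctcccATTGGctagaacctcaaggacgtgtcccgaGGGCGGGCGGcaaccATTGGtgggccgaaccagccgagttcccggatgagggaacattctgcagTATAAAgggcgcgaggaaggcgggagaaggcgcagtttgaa

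CCAAT stood in 18 of 20 clustered-gene windows (90%) and in 4 of 7 variant windows (57.1%), against 37.5% of all 33469 RefSeq windows of this length. TATAAA stood in 12 of 20 clustered-gene windows (60%) and 2 of 7 variant windows (28.6%), against 14.2% of all windows. GGGCGG stood in 10 of 20 clustered-gene windows and 4 of 7 variant windows, against 33.1% of all. In Hist3h2a the GGGCGG lies within the 50 bases after the gene start, inside the coding sequence, and is counted all the same. The overlapping windows of Hist3h2a with Hist3h2bb and of Hist1h2aa with Hist1h2ba are each among the 20, so sites in their shared bases count for both genes. The windows of the clustered genes Hist1h4b and Hist1h4m and of the variants H2afy and H2afy2 held none of the 3 motifs. H3f3b and H2afz were the variants with TATAAA, and each also held CCAAT, at 4 sites in H3f3b and 3 in H2afz. These letter matches are descriptions of the windows and show no factor binding.

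The deposited values have the form of log2 of an adjusted read count plus 1, as judged from the values, and levels below are the adjusted read counts. They sum to 21763657 with In-Cl, 22185239 with DPN, 22090980 with E2, 22837695 in hypoxia and 20663687 in the control. Low values come in equal steps, from which approximate reads were derived, between 20064469 with E2 and 24746930 in the control. The 95% intervals below come from these reads and cover counting error only. All 8 smooth muscle markers had reads in every library, between 5 and 31 for Des and between 108969 and 147581 for Acta2, smooth muscle actin. Their median against hypoxia was -0.46 for In-Cl and -0.32 for DPN, with 7 of 8 below 0 in each. Of all 10770 rows with a mean of at least 10, 5405 were below 0 for In-Cl and 5396 for DPN. Against the control Smtn was at -0.99 and Des at 2.63 in hypoxia. Fibroblast markers (5 of 5 with reads) summed to between 739.7 and 820.2 in the 4 hypoxic libraries and to 1399 in the control. Lum carried that gap, and the other 4 summed to between 187.3 and 223.0 in the hypoxic libraries and to 185.2 in the control. Endothelial markers (5 of 7 with reads, none for Cdh5 and Kdr) summed to between 418.9 and 524.5. The 2 with a mean of at least 10 went opposite ways in hypoxia against control, Tek at 0.596 and Flt1 at -1.175. Leukocyte markers (4 of 7 with reads) summed to between 186.9 and 239.8, most of it Cd14. The part of these markers in the differences below was not tested. Fewer cells of a type and less RNA per cell cannot be told apart in bulk RNA.

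The first comparison is hypoxia against control, which addresses how the histone transcripts stood after 24 h of low oxygen. The clustered genes were higher in the hypoxia library, and the replacement variants went both ways. Counts of members were made over the 23 with a mean adjusted count of at least 10, which are 15 clustered genes and all 8 variants. Of the 15 clustered genes, 14 were above the control, as were 5050 of all 10770 rows with such a mean. The clustered median log2 difference was 0.79, against 0.07 for the 8 variants and -0.03 for all these rows. A 2-fold excess in hypoxia was found in 5 of 15 clustered genes and 0 of 8 variants, against 4.27% of all rows. A 2-fold deficit was found in 0 of 23 members, against 1.14% of all rows. Quantile normalization and rescaling to a common library total before adding 1 (CPM) each left 12 of 15 clustered genes above 0. CPM lowered their median to 0.30, while the library totals differed by log2 0.14. The 1 added after rescaling weighs more against low values, so this fall is not that of library total alone. For the variants, 4 above and 4 below became 5 and 3 with median centring, 6 and 2 with quantile normalization and 3 and 5 with CPM. The count of all rows above 0 was not made under these scalings.

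Most clustered genes were counted at low levels, where such differences are more frequent. Of the 15, 11 had a mean between 10 and 100, and in that range 13.5% of 1898 rows were at least 2-fold higher in hypoxia, 59.1% were above 0 and the median was 0.15. The other 4 clustered genes, Hist1h2bh, Hist1h4b, Hist3h2a and Hist2h2ab, had higher means; of 5592 rows with a mean from 100 to 1000, 2.25% were at least 2-fold higher and the median was -0.06. The counting interval lay above 0 for 7 of 15 clustered genes and 4 of 8 variants (26.2% of all rows), and below 0 for 0 clustered genes and 2 variants (31.5% of all rows). Intervals narrow as reads rise, and 6 of 8 variants had a mean of at least 1000. Such all-row shares of intervals, here and below, are not matched to level. With intervals set to a common library total, 3 variants lay above 0 and 4 below it, H2afx and H2afy2 joining H2afz and H2afy.

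Hist2h2ab, a clustered H2A gene of the smaller cluster on chromosome 2, had 222.9 with In-Cl, 302.0 with DPN, 302.0 with E2, 326.2 in hypoxia and 100.5 in the control. All 4 hypoxic libraries were more than double the control, and the In-Cl library was the lowest of them. Hypoxia stood 3.22-fold above the control (log2 1.69, interval 1.40 to 2.02), the largest difference among the 23 members in this comparison. Hist3h2a, an H2A gene of the third cluster, had 273.4 with In-Cl, 298.8 with DPN, 282.3 with E2, 294.3 in hypoxia and 146.3 in the control, and hypoxia was higher (log2 1.003, interval 0.73 to 1.29). Its head-to-head neighbour Hist3h2bb had 3 reads with In-Cl, 2 with DPN, 0 with E2, 2 in hypoxia and 1 in the control, so a difference was not detectable at this depth.

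Hist1h4b, which encodes histone H4, had 450.0 with In-Cl, 427.2 with DPN, 436.2 with E2, 408.9 in hypoxia and 231.5 in the control. The 4 hypoxic libraries lay close together and above the control, with hypoxia 1.76-fold higher at log2 0.82 (interval 0.60 to 1.05). Hist1h2bh, an H2B gene, had 6945 with In-Cl, 7351 with DPN, 7906 with E2, 7912 in hypoxia and 4531 in the control. The hypoxia library exceeded the control 1.75-fold (log2 0.80, interval 0.75 to 0.85). The symbol Hist1h2bh is an older name of both Hist1h2bq and H2bc9 in RefSeq, and clustered H2B genes are near-identical copies, so which gene these reads belong to is uncertain.

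**Figure D1:**
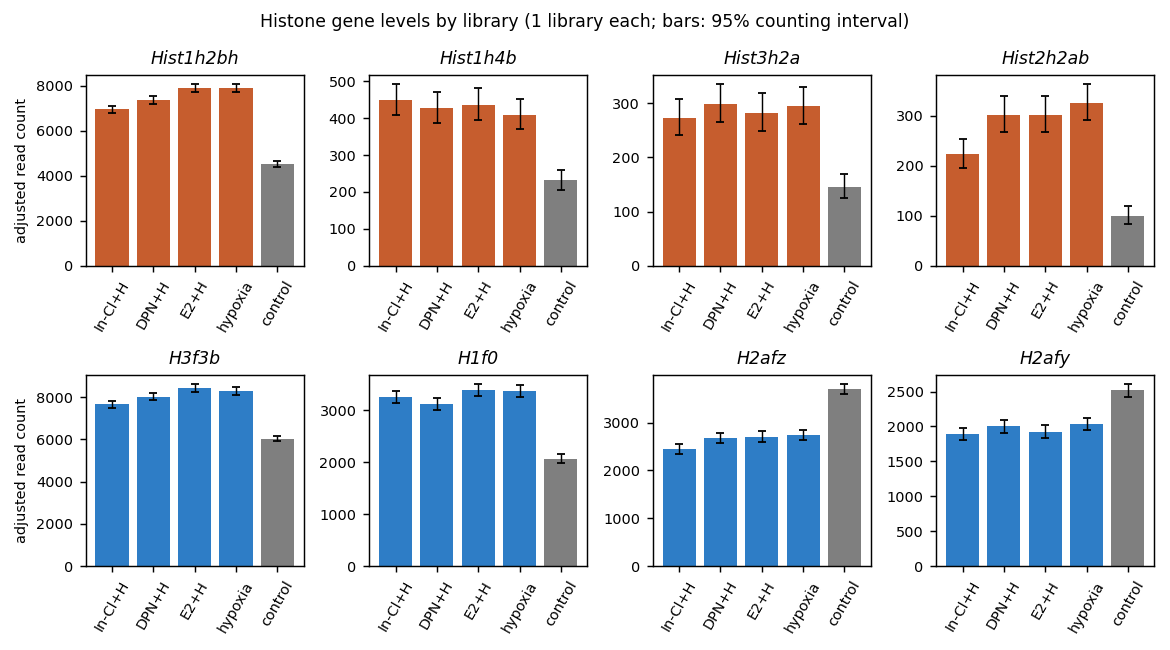
Adjusted read count (y axis, from 0) of 4 clustered genes (upper row) and 4 replacement variants (lower row) in the 5 libraries (x axis); error bars are 95% counting intervals of 1 library each. The 4 hypoxic libraries lie above the control in the upper row and for H3f3b and H1f0, and below it for H2afz and H2afy, as with 2737 in hypoxia and 3698 in the control for H2afz.

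The remaining clustered genes rested on fewer reads. Hist1h2bd, an H2B gene, had 19 reads with In-Cl, 23 with DPN, 17 with E2, 21 in hypoxia and 7 in the control (hypoxia against control log2 1.66, interval 0.60 to 3.37). Hist1h2bl, another H2B gene, had 16 reads with In-Cl, 30 with DPN, 17 with E2, 22 in hypoxia and 9 in the control (log2 1.42, interval 0.42 to 2.90). The H2A gene Hist1h2an had 93 reads with In-Cl, 56 with DPN, 62 with E2, 62 in hypoxia and 44 in the control (log2 0.77, interval 0.22 to 1.39). For these 3 the control had the fewest reads and the interval lay above 0. Hist1h2ak was 2.59-fold higher on 9 reads in hypoxia and 4 in the control, with an interval from -0.36 to 3.63.

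Hist1h2bo (log2 0.56), Hist1h1d (0.60), Hist2h3c2 (0.79) and Hist1h2af (0.78) were also above 0 with intervals that included it. Hist2h3c2 is the clustered H3 gene among the 15, with 21 reads in hypoxia and 14 in the control. Hist1h2ail1 (log2 0.11) and Hist1h1t (0.12) were near 0 and changed sign under quantile normalization and with CPM. Hist1h2bk, an H2B gene whose human counterpart is known to give polyadenylated transcripts, was the 1 clustered gene below the control, with 33.1 in hypoxia and 40.6 in the control (log2 -0.29, interval -0.998 to 0.36).

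The 9 clustered genes with a mean under 10 were Hist1h4m, Hist1h2ba, Hist1h1a, Hist1h1b, Hist3h2ba, Hist3h2bb, Hist1h2aa, Hist2h4 and Hist3h3, with 0 to 10 reads in any library. Summed, they had 34 reads with In-Cl, 35 with DPN, 21 with E2, 21 in hypoxia and 24 in the control. The interval of hypoxia against control for this sum was -0.80 to 1.02. Members known for expression in the male germ line are Hist1h1t (linker histone H1t), Hist1h2aa (TH2A), Hist1h2ba (TH2B) and Hist3h3, and their summed reads were 40 with In-Cl, 14 with DPN, 21 with E2, 20 in hypoxia and 24 in the control. Hypoxia and control did not differ detectably in that sum (log2 0.047, interval -0.89 to 0.96).

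By histone family, the summed clustered H2A genes in hypoxia exceeded the control 2.29-fold (7 genes, log2 1.19, interval 1.02 to 1.38). For the H2B genes hypoxia was 1.74-fold higher (8 genes, log2 0.80, interval 0.75 to 0.85) and for the H4 genes 1.74-fold higher (3 genes, log2 0.80, interval 0.58 to 1.02). The H3 genes (2 genes, log2 0.91, interval -0.07 to 2.04) and the clustered H1 linker genes (4 genes, log2 0.41, interval -0.20 to 0.99) had intervals that included 0. The family totals are led by 1 gene each for H2B, H3 and H4, and the second H3 gene, Hist3h3, had 0 or 1 read in each library.

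The replacement variants split between genes above and below the control. H1f0, the linker histone H1.0 known to accumulate in cells that have stopped dividing, had 3260 with In-Cl, 3120 with DPN, 3386 with E2, 3372 in hypoxia and 2071 in the control. The hypoxia library exceeded the control 1.63-fold (log2 0.70, interval 0.63 to 0.78), the largest excess among the 8 variants. H3f3b, a gene for the replacement histone H3.3, had 7664 with In-Cl, 8022 with DPN, 8433 with E2, 8277 in hypoxia and 6038 in the control. Hypoxia was 1.37-fold higher (log2 0.46, interval 0.41 to 0.50). For both genes all 4 hypoxic libraries lay above the control.

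H2afz, which encodes H2A.Z.1, a variant found around gene starts, had 2448 with In-Cl, 2681 with DPN, 2707 with E2, 2737 in hypoxia and 3698 in the control. Hypoxia stood 1.35-fold below the control (log2 -0.43, interval -0.50 to -0.36). H2afy, which encodes macroH2A1, a variant enriched on the inactive X chromosome and other silent chromatin, had 1887 with In-Cl, 1999 with DPN, 1924 with E2, 2034 in hypoxia and 2517 in the control (hypoxia against control log2 -0.31, interval -0.39 to -0.22). The 4 hypoxic libraries lay below the control for both. H2afv, the gene of H2A.Z.2, differed from H2afz in direction, with 1345 in hypoxia and 1122 in the control (log2 0.26, interval 0.15 to 0.37).

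The other 3 variants differed little. H2afx, whose product is phosphorylated at DNA breaks, had 1223 in hypoxia and 1226 in the control (log2 -0.004, interval -0.11 to 0.11), and its sign depended on the scaling. H2afj, whose product accumulates in senescent human fibroblasts, had 836.5 in hypoxia and 760.1 in the control (log2 0.14, interval 0.00067 to 0.28), a difference that changed sign with CPM. H2afy2, which encodes macroH2A2, had 547.4 in hypoxia and 559.7 in the control (log2 -0.03), and its sign also depended on the scaling. RefSeq lists the symbol H2afx as an older name of both H2ax and Dpagt1, so its row is uncertain.

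**Figure D2:**
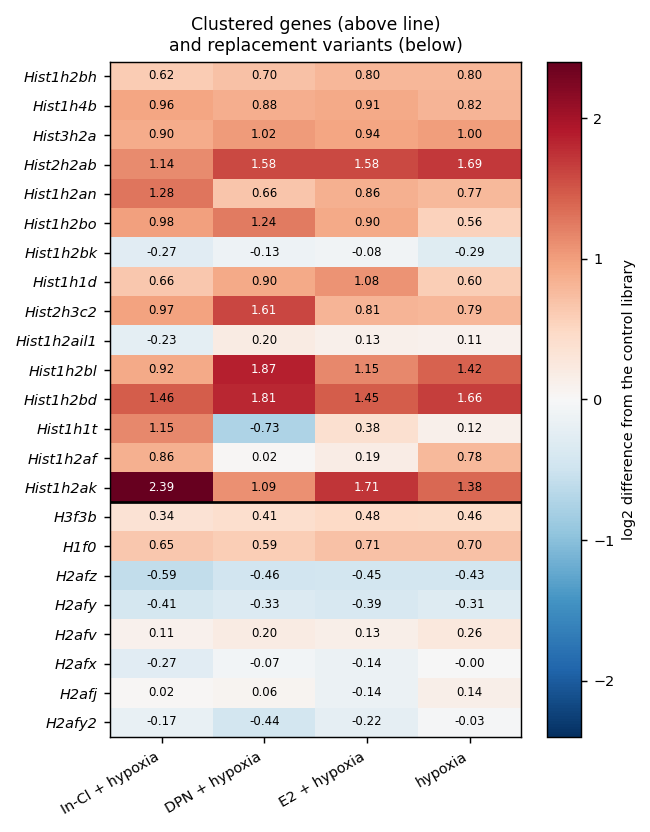
Log2 difference of each hypoxic library (columns) from the control library for the 23 members with a mean adjusted count of at least 10 (rows; clustered genes above the line, variants below it). Red is above and blue below the control; of the 15 clustered genes 12 are above it in all 4 columns, and H2afz and H2afy are below it in all 4.

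The In-Cl, DPN and E2 libraries can be set against the same single control, so these comparisons share it. The median of the 15 clustered genes against the control was 0.96 for In-Cl, 0.90 for DPN and 0.90 for E2. The median of the 8 variants was -0.08 for In-Cl, -0.005 for DPN and -0.14 for E2. With In-Cl, 5 of 15 clustered genes were at least 2-fold higher (5.05% of all rows) and 0 members were 2-fold lower (1.5% of all rows). With DPN, 7 of 15 were at least 2-fold higher (4.16% of all rows) and 0 were lower (1.31%). With E2, 5 of 15 were at least 2-fold higher (4.09% of all rows) and 0 were lower (1.33%). Hist2h2ab, Hist1h2bd and Hist1h2ak exceeded the control at least 2-fold in each of the 4 hypoxic libraries, although Hist1h2ak rested on 4 reads in the control.

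The control was the lowest of the 5 libraries for 12 of 15 clustered genes and 3 of 8 variants (H3f3b, H1f0 and H2afv), against 31.8% of all rows. It was the highest for 1 clustered gene, Hist1h2bk, and 4 variants (H2afz, H2afy, H2afx and H2afy2), against 36.5% of all rows. Among rows with a mean from 10 to 100 the control was lowest in 36.4%.

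Summed levels gave the same direction for the clustered class. The 24 clustered genes summed to 8289 with In-Cl, 8766 with DPN, 9281 with E2, 9268 in hypoxia and 5231 in the control, and hypoxia was 1.77-fold higher (log2 0.83, interval 0.78 to 0.87). Hist1h2bh held 83.8% of this sum with In-Cl, 83.9% with DPN, 85.2% with E2, 85.4% in hypoxia and 86.6% in the control, with no correction for gene length. Without Hist1h2bh the sums were 1344 with In-Cl, 1415 with DPN, 1375 with E2, 1356 in hypoxia and 700 in the control, and hypoxia was 1.94-fold higher (log2 0.95, interval 0.83 to 1.08).

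The 8 variants summed to 18753 with In-Cl, 19483 with DPN, 19966 with E2, 20372 in hypoxia and 17992 in the control. Hypoxia was 1.13-fold higher (log2 0.18, interval 0.15 to 0.21), and without H3f3b the log2 ratio was 0.017 with an interval from -0.018 to 0.052. The clustered sum divided by the variant sum was 0.442 with In-Cl, 0.450 with DPN, 0.465 with E2, 0.455 in hypoxia and 0.291 in the control. H2afz divided by H3f3b was 0.319 with In-Cl, 0.334 with DPN, 0.321 with E2, 0.331 in hypoxia and 0.613 in the control. These ratios are within a library, not per gene length, and do not depend on scaling between libraries.

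Genes that serve histone supply were examined beside the histones, in lists chosen by name. In the list of histone RNA processing, 11 of 13 genes were below the control in hypoxia, as were 5710 of all 10770 rows. Of these 11, 9 had an interval below 0 (31.5% of all rows), and the median of the list was -0.29. Slbp, the stem-loop binding protein, had 656.1 with In-Cl, 695.5 with DPN, 638.6 with E2, 612.5 in hypoxia and 863.7 in the control (hypoxia against control log2 -0.495, interval -0.64 to -0.35). Npat, which activates the clustered genes at the G1 to S transition, was at -0.19 (interval -0.35 to -0.02) and Casp8ap2, its partner at the histone locus, at -0.13 (interval -0.34 to 0.07). The lowest were Lsm11, a subunit of the U7 particle that cleaves histone transcripts (-0.60), and the cleavage factor Cpsf2 (-0.51). The highest were Lsm10, another U7 subunit (0.31, interval -0.05 to 0.66), and Mios (0.13). Mios is known as a subunit of the nutrient-sensing GATOR2 complex and not for histone RNA, and without it 11 of 12 genes were below the control, 9 by their intervals, with the median at -0.29.

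Of 22 histone chaperone and deposition genes, 19 were below the control, as were 5710 of all 10770 rows. By their intervals 17 were below (31.5% of all rows), and the median was -0.26. Nasp, a chaperone that holds a reserve of H3 and H4, was lowest, with 1375 in hypoxia and 2423 in the control (log2 -0.82, interval -0.91 to -0.72), followed by the helicase Ruvbl1 (-0.58). Asf1b, which hands new H3 and H4 to the replication fork, was at -0.36 (interval -0.59 to -0.14) and Hira, which deposits H3.3, at -0.32 (interval -0.46 to -0.18). Znhit1, a subunit of the complex that deposits H2A.Z, was highest at 0.32 (interval 0.15 to 0.49), and Hjurp, the chaperone of centromeric CENP-A, was next at 0.105 with an interval from -0.12 to 0.34. Cenpa itself, a centromeric H3 variant outside the name rule, had 266.4 in hypoxia and 329.8 in the control (log2 -0.31, interval -0.54 to -0.08).

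S phase and DNA replication genes stood lower in hypoxia, in the opposite direction to the clustered histone genes. Of 30 genes 27 were below the control, as were 5710 of all 10770 rows. By their intervals 25 were below (31.5% of all rows) and 1 was at least 2-fold lower (1.14% of all rows), with a median of -0.41. Cyclin E, Ccne1, was lowest at -1.01 (interval -1.21 to -0.82), followed by the DNA polymerase subunit Pola1 at -0.72. Pcna, the sliding clamp of the replication fork, had 1886 in hypoxia and 2538 in the control (log2 -0.43, interval -0.51 to -0.34), and Ccne2 was at -0.08 with an interval that included 0. Mki67, a proliferation marker, was highest at 0.15 (interval 0.07 to 0.22), followed by E2f1 at 0.10. The median of this list against the control was -0.49 for In-Cl, -0.41 for DPN and -0.39 for E2. The part of this difference in the histone results was not tested.

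**Figure D3:**
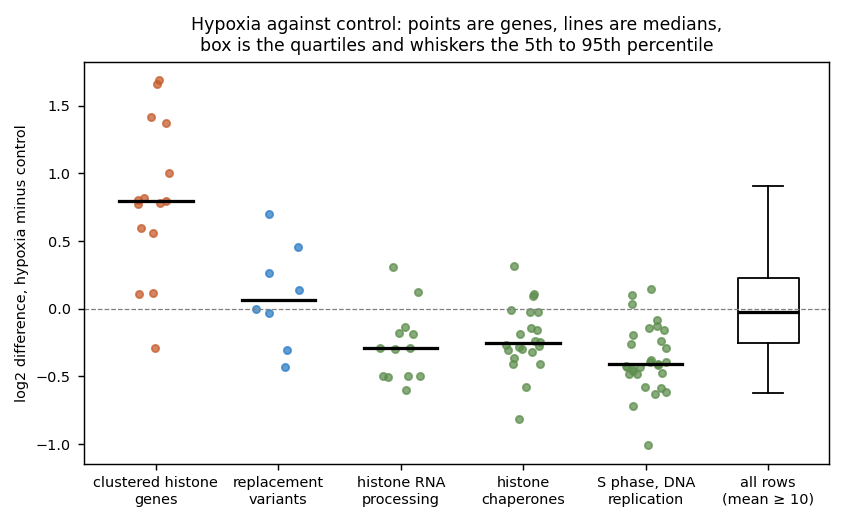
Log2 difference of hypoxia minus control (y axis) for 15 clustered histone genes, 8 replacement variants and 3 lists of related genes (points are genes, lines are medians), beside all 10770 rows with a mean of at least 10 (box, quartiles; whiskers, 5th to 95th percentile). The clustered genes have a median of 0.79 and the S phase list one of -0.41.

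Ribosomal RNA and other transcripts without a poly(A) tail were set beside the clustered genes, whose mRNAs also lack one. Rn45s had 465363 with In-Cl, 617037 with DPN, 466979 with E2, 611502 in hypoxia and 467626 in the control. Rn28s was at 0.42 in hypoxia against the control and Rn45s at 0.39, while Rn18s was at -0.06 and Rmrp, an RNA polymerase III transcript, had 12 reads in hypoxia and 29 in the control. The Rn45s level was high in the DPN and hypoxia libraries and close to the control with In-Cl and E2. The part of these RNAs, or of how RNA was selected, in the histone results was not tested.

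In-Cl against hypoxia addresses what the indazole compound adds to hypoxia. The replacement variants were slightly lower, all 8 below 0 with a median of -0.13, or 7 of 8 with a median of -0.058 with CPM. Of all 10770 rows 5405 lay below 0. The clustered genes went both ways around a median of 0.06. The interval lay below 0 for 5 of 8 variants and 2 of 15 clustered genes (21.7% of all rows) and above 0 for 0 variants and 2 clustered genes (21.2%). H2afx was lowest among the variants, with 1018 with In-Cl and 1223 in hypoxia (log2 -0.26, interval -0.39 to -0.14), and H1f0 was nearest to 0 (log2 -0.05), with a sign that turned with CPM. Of the clustered genes 9 lay above 0 and 6 below it, and 7 and 8 with quantile normalization. H2afz (-0.16), H2afv (-0.15), H3f3b (-0.11) and H2afy (-0.11) were the others below 0 by their intervals. With intervals set to a common library total, 2 variants remained below 0, H2afz and H2afx. Of the clustered genes 3 then lay above 0, Hist1h4b joining Hist1h2an and Hist1h1t, and 2 below it.

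Hist2h2ab, the gene with the largest excess in hypoxia, was 1.46-fold lower with In-Cl (log2 -0.55, interval -0.80 to -0.30) and still 2.21-fold above the control. Hist1h2bh was at -0.19 (interval -0.23 to -0.14), and without it the summed clustered genes were level with hypoxia (log2 -0.012, interval -0.12 to 0.098). Hist1h2an was higher (log2 0.51, interval 0.04 to 1.01; 93 reads with In-Cl and 62 in hypoxia). Hist1h1t (31 reads with In-Cl and 14 in hypoxia, log2 1.03, interval 0.13 to 2.11) and Hist1h2ak (20 with In-Cl and 9 in hypoxia, log2 1.01, interval -0.11 to 2.405) were the 2 members at least 2-fold higher, against 1.07% of all rows. There were 0 such members with quantile normalization, with CPM, with a pseudocount of 5 and with a mean of at least 50. No member was 2-fold lower (0.631% of all rows).

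For DPN, given at the same dose as In-Cl, the differences from hypoxia were small. All 8 variants lay below 0 with a median of -0.065, or 7 of 8 with quantile normalization and 6 of 8 with CPM. Of all 10770 rows 5396 lay below 0, and the clustered median was 0.06. No member was 2-fold higher (0.631% of all rows) or 2-fold lower (0.78%). The interval lay above 0 for 2 of 15 clustered genes and 0 variants (13.2% of all rows) and below 0 for 1 clustered gene and 2 variants (14.1%), or 1 variant, H2afy2, at a common library total. H2afy2, macroH2A2, stood out among the variants, with 412.6 with DPN and 547.4 in hypoxia (log2 -0.41, interval -0.60 to -0.22), while the In-Cl library had 496.3 and the E2 library 480.4. H1f0 was slightly lower (log2 -0.11, interval -0.18 to -0.04), as was Hist1h2bh (log2 -0.11, interval -0.15 to -0.06). Hist1h2bo (62 reads with DPN and 39 in hypoxia, log2 0.69, interval 0.11 to 1.32) and the H3 gene Hist2h3c2 (37 with DPN and 21 in hypoxia, log2 0.81, interval 0.05 to 1.70) were higher.

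The E2 library, at 10 nM, had a log2 ratio to hypoxia of 0.002 in the summed clustered genes (interval -0.041 to 0.045), and of 0.050 with CPM. The median of the 8 variants was -0.10, with 6 of 8 below 0, or 5 of 8 with CPM. Of all 10770 rows 5423 lay below 0. No member was 2-fold higher (0.696% of all rows) or 2-fold lower (0.696%). The interval included 0 for all 15 clustered genes, against 14.3% of all rows above and 14.5% below, and for 4 of 8 variants it lay below 0. At a common library total Hist1h2bh and H3f3b lay above 0 and 1 variant, H2afj, below it. H2afj was lowest, with 688.3 with E2 and 836.5 in hypoxia (log2 -0.28, interval -0.435 to -0.13), followed by H2afy2 (-0.19), H2afx (-0.13) and H2afv (-0.13). Hist1h2bh did not differ detectably (log2 -0.001, interval -0.05 to 0.05), nor did H3f3b (0.03) or H1f0 (0.006).

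**Figure D4:**
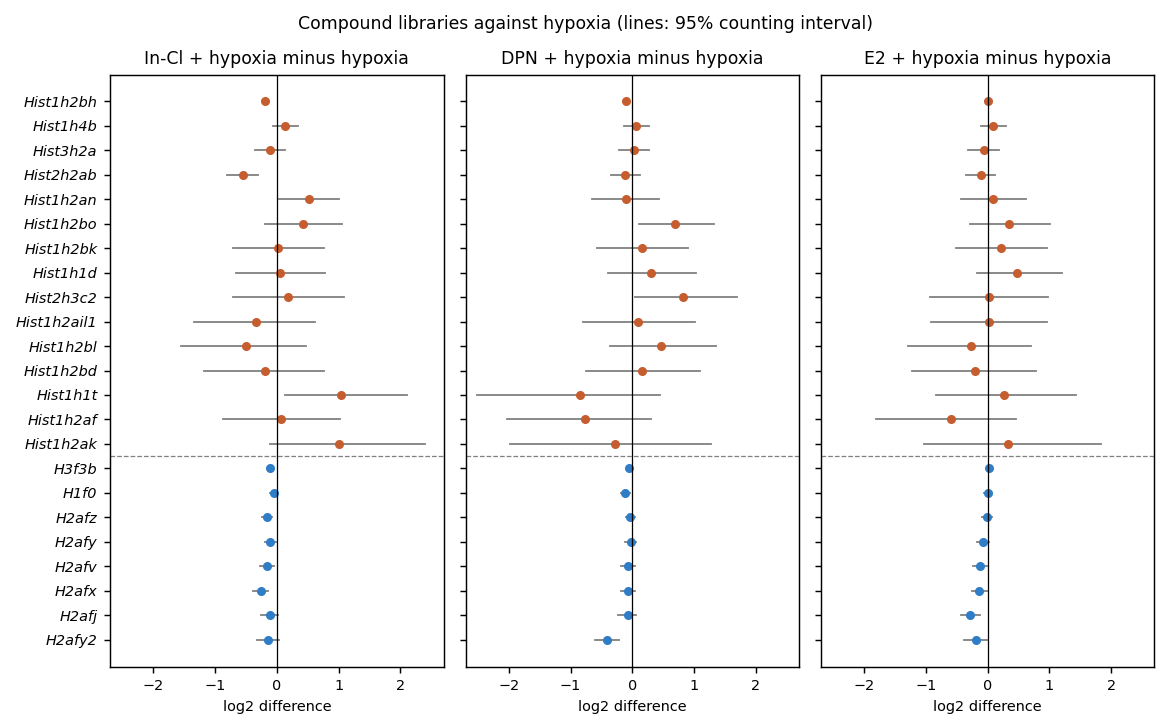
Log2 difference (x axis) of the In-Cl, DPN and E2 libraries from the hypoxia library for 23 members (rows; clustered genes above the dashed line, variants below it), with 95% counting intervals as lines. All 8 variants lie below 0 with In-Cl, between -0.26 and -0.05 (H1f0 above it with CPM), and the widest intervals belong to clustered genes with few reads.

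In-Cl and DPN, both at 0.1 µM, can be set directly against each other, and this was the 1 pair at matched dose and time. The interval of In-Cl against DPN lay above 0 for 3 clustered genes and 1 variant (17.4% of all rows) and below 0 for 3 clustered genes and 3 variants (18%). Hist1h1t had 31 reads with In-Cl and 7 with DPN (log2 1.88, interval 0.83 to 3.47), Hist1h2ak had 20 with In-Cl and 7 with DPN (log2 1.29, interval 0.11 to 2.895) and Hist1h2an had 93 with In-Cl and 56 with DPN (log2 0.62, interval 0.13 to 1.13). Hist2h2ab was lower with In-Cl than with DPN (222.9 with In-Cl and 302.0 with DPN, log2 -0.44, interval -0.70 to -0.18), as were Hist1h2bl (16 reads with In-Cl and 30 with DPN) and Hist1h2bh (log2 -0.08, interval -0.13 to -0.03). H2afy2 was higher with In-Cl than with DPN (log2 0.27, interval 0.07 to 0.46), and H3f3b (-0.07), H2afz (-0.13) and H2afx (-0.20) were lower. E2 was given at 10 nM, so it is not set against the other compounds.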

How the data were processed

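RNA from rat vascular smooth muscle cells was sequenced as 1 library per condition. For each library the authors deposited log2 values over 17048 rows of gene symbols, apparently log2 of a scaled read count plus 1, as judged from the values. TopHat, edgeR and build rn6 are named, with no role or version, per the submitters' processing notes. How reads were counted, with which annotation and whether by strand, is not given in the sources used here. Linear values (2 to the deposited value, minus 1) fall in steps of 0.835 (control) to 1.10 (E2); of low values, 77.5% in the control and 98.3% to 100% in the other libraries fell on a whole number of steps to a tolerance of 0.2 read, so reads are least exact in the control. Reads are the linear value divided by the step, rounded.

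Differences are of deposited log2 values, with a pseudocount of 1, so fold changes of low genes are understated. Intervals are 95% Clopper-Pearson intervals of the share of reads between 2 libraries, and for single levels exact Poisson intervals. Both cover counting error only and take reads as independent. Reads lacking molecular identifiers may be copies of one molecule, so the intervals may be too narrow even for counting error. Counts use rows with a mean linear value of at least 10. Shares of all rows were computed only for deposited values with that filter, so counts under other scalings, pseudocounts or filters have no matching share. No count model was fitted. The interval code was checked on simulated libraries of Poisson reads in exact steps. These meet the assumptions of the intervals, so the check covers the code and not how well the intervals suit these data. Python 3.11.15, pandas 2.3.3, numpy 2.4.6, scipy 1.17.1 and matplotlib 3.10.9 were used. Members and gene lists were chosen with earlier results of these data known, and the promoter motifs after them. Any member with a mean of at least 10 could be named; from each list of related genes, the 2 highest and 2 lowest in hypoxia against control and a preset group of genes were named where present. Median centring, quantile normalization, rescaling to a common library total (CPM), other pseudocounts, filters and fold thresholds were tried.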

Additional observations from a re-analysis of the deposited data

How the results depend on the processing

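The excess of the clustered genes over the control kept its direction under every alternative tried, and its size did not. No library has a replicate, so nothing can be said of variation between cultures, and depth limits the low members, 9 of which had 0 to 10 reads in any library. No paired analysis was possible because each condition has 1 library. Median centring, summing rows of a symbol and raising values under 3 reads to that level left all 49 summary values within their intervals or within 1.5 times for counts. These 3 alternatives could change little. Repeated member symbols numbered 0, so summing rows altered no member. Members with a mean of at least 10 had at least 4 reads in each library, so raising low values could not move medians or counts. Centring shifted hypoxia against control by 0.026 and cannot change the difference of the class medians.

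Rescaling to a common library total (CPM) before adding 1, which weighs more against low values, gave a clustered median of 0.30 for hypoxia and 0.54 for In-Cl against control. The log2 ratio of summed clustered genes to the control became 0.68 for hypoxia, 0.59 for In-Cl, 0.64 for DPN and 0.73 for E2. The summed variant ratio became 0.035 for hypoxia, -0.015 for In-Cl (from 0.060, a change of sign), 0.012 for DPN and 0.054 for E2. Members at least 2-fold higher than the control became 1 for hypoxia, 0 for In-Cl, 1 for DPN and 1 for E2. No all-row share was computed with CPM. Against hypoxia, the summed clustered ratio became -0.091 for In-Cl, -0.038 for DPN and 0.050 for E2, the summed variant ratio -0.050 for In-Cl, -0.023 for DPN and 0.019 for E2, and the DPN variant median -0.023; 0 members were then 2-fold higher with In-Cl.

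With a pseudocount of 5, 3 members were 2-fold higher than the control in hypoxia and 3 with E2, and 0 were higher than hypoxia with In-Cl. Quantile normalization gave 3 for E2 against control and 0 for In-Cl against hypoxia. With a mean of at least 50, 2 members were 2-fold higher for hypoxia, 2 for In-Cl, 2 for DPN and 1 for E2 against control, and 0 for In-Cl against hypoxia; fewer genes were then tested. With no filter, against control, hypoxia had 7 members 2-fold higher and 2 lower, and In-Cl 8 higher and 1 lower. DPN had 11 higher and 1 lower against control, and E2 6 higher and 0 lower. Against hypoxia, In-Cl had 4 higher and 1 lower, DPN 2 higher, and E2 2 higher and 3 lower. No all-row share was computed for these pseudocounts, scalings or filters, so the counts have no background beside them. At 1.5-fold, 12 were higher in hypoxia than in the control (9.35% of all rows). Against hypoxia at 1.5-fold, 2 were higher (2.15%) and 2 lower (2.47%) with DPN, and 1 was lower with E2 (2.74%).

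Without Hist1h2bh, the summed clustered ratio was 0.95 for hypoxia against control, -0.012 for In-Cl and 0.062 for DPN against hypoxia (from -0.080, a change of sign). Without H3f3b, the summed variant ratio was 0.017 in hypoxia over control and -0.069 in E2 over hypoxia. With another hypoxic library in place of hypoxia, the summed clustered ratio was 0.66 (In-Cl) and 0.74 (DPN), and the summed variant ratio 0.060 (In-Cl), 0.11 (DPN) and 0.15 (E2). Without the 5 symbols that match several RefSeq genes, an alternative added after the data were seen, the clustered median was 0.78 and 4 members were 2-fold higher. Shifting intervals to a common library total was, like the list without Mios, added after the data were seen. With that shift, 4 variants lay below 0 in hypoxia against control. Against hypoxia, 2 variants lay below 0 for In-Cl cells, 1 for DPN cells and 1 for E2 cells. The E2 cells also had 1 variant and 1 clustered gene above 0. For In-Cl cells 3 clustered genes lay above 0 and 2 below it. The cause of these changes was not tested beyond what each alternative's construction shows.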

Other observations

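Of 6 germ line markers listed because of the testis histones among the members, 1 had reads, the meiotic protein gene Sycp3. It had 44 reads with In-Cl, 28 with DPN, 60 with E2, 18 in hypoxia and 8 in the control, and the other 5 had no reads in any library. Sycp3 was named after its values were seen.

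Among the ribosomal RNA rows, Rn5-8s had 306.6 adjusted counts with E2, against 10512.8 with In-Cl, 11424.7 with DPN, 13690.6 in hypoxia and 12835.8 in the control. The clustered histone genes summed to 9281 in that E2 library and to 9268 in hypoxia.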
